A study of Mus musculus with 3 samples.

Results

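The nuclear genes of oxidative phosphorylation were followed in 3 RNA-seq libraries of mouse cells labelled as endothelial. Members were chosen by name alone, as the symbols that start with Nduf, Uqcr, Cox4i, Cox5, Cox6, Cox7b, Cox7c, Cox8 or Atp5, together with Sdha, Sdhb, Sdhc, Sdhd, Cyc1 and Cycs. The rule found 93 of the 23397 genes in the files, held in 102 entries, and 86 members had a single entry. Of the 93 members, 89 had at least 1 FPKM in at least 1 library and are called expressed below, as were 11080 genes in all. The 4 others were Cox6a2, Cox7b2, Cox8b and Cox8c.

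The study asked which genes depend on the blood regulators Scl (current symbol Tal1), Gata1 and Gata2. The libraries came from SclKO, Gata1&2KO (titled Gata12KO) and wild type (WT) mouse embryonic stem cells, 1 library each, and no agent set the groups apart. All 3 lines were cultured as embryoid bodies, the floating aggregates in which stem cells differentiate, for 4.75 days. Cells carrying Tie2 and CD31 but not CD41 were then sorted. The labels give no number of clones or cultures per genotype, and cells formed in embryoid bodies stand in for those of an embryo. As to the cell type label, all 8 endothelial markers had at least 1 FPKM in each library. So did all 6 mesenchyme markers, so this threshold does not tell these cell types apart. The sums of both marker lists, given below, differed between the libraries. Tal1 had 1.59 FPKM in SclKO, 38.7 in the library labelled Gata12KO and 51.0 in WT. Gata1 was listed at 0 in SclKO and had 5.66 FPKM in the library labelled Gata12KO and 4.64 in WT, and Gata2 had 5.81, 44.9 and 12.05. Since neither was lower than in WT, the Gata1 and Gata2 levels do not show the knockout named by that label, and each value covers a whole transcript, in which a deleted exon would not show.

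Oxidative phosphorylation makes ATP in the inner mitochondrial membrane. Complexes I and II pass electrons from NADH and succinate to ubiquinone, complex III passes them to cytochrome c and complex IV to oxygen. The protons pumped by complexes I, III and IV drive ATP synthase. Most subunits are encoded in the nucleus and imported, a minority comes from mitochondrial DNA, and several nuclear subunits exist as tissue or oxygen dependent isoforms. Factors known to act at the promoters of many of these genes are NRF1, the ETS factor GABP and YY1. Levels are given as FPKM, the fragments on a transcript divided by a length and by the library's total. The deposited bounds fit a length that is shorter than the transcript by 199 nt in SclKO, 168 nt in the library labelled Gata12KO and 186 nt in WT. This lifts the levels of the shortest transcripts most, so medians by complex and some levels set side by side are also given on the full transcript length. Bounds in brackets are those in the deposited files and cover counting error alone.

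Promoter sequence is shown for 3 members on which the results turn or which contrast with them: Ndufa8, the member that was lower in SclKO, Ndufb7, a member lower in the library labelled Gata12KO than in both others, and Cox6a1, an abundant member that passed the 2-fold rule in no comparison. Cox6a1 was still not level, with 715 FPKM in SclKO, 433 in the library labelled Gata12KO and 812 in WT. Each line gives the 200 bases upstream of the annotated start, 5′ to 3′ on the gene's strand, from RefSeq on GRCm38.p6, a later build than that of the expression files. Capitals mark matches on either strand to the NRF1 motif, which reads GCGCA, any base and GCGC, or to CCGGAAG, the motif of ETS factors including GABP. The windows are chr2:36049339-36049538 on the reverse strand for Ndufa8, chr8:83566558-83566757 on the forward strand for Ndufb7 and chr5:115348959-115349158 on the reverse strand for Cox6a1.
Ndufa8: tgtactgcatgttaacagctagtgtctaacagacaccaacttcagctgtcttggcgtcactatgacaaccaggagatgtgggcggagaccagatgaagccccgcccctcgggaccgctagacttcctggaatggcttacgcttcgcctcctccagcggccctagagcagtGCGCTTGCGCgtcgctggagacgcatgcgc
Ndufb7: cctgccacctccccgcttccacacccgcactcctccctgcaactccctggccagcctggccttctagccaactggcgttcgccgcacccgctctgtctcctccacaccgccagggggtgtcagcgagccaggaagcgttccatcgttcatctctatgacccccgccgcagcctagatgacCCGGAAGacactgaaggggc
Cox6a1: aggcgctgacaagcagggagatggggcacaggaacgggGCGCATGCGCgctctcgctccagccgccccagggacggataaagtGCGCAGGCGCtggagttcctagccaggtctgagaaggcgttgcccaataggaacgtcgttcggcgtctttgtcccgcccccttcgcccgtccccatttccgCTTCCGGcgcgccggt

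The RefSeq promoter table, with windows of 250 bases before to 50 after the start, held 74 of the 93 members. The NRF1 motif stood in 19 of them (25.7%), against 5.19% of the 27025 promoters in the table and 12.4% of those of expressed genes. The ETS motif CCGGAAG stood in 19 (25.7%), against 9.93% of all promoters and 21.3% of those of expressed genes. The YY1 motif AAGATGGCG stood in 8 (10.8%), against 1.64% and 3.92%. Both strands were searched for each, and 39 members held at least 1 of the 3. The GATA motif AGATAAG matched in 0 of the 74 windows, against 3.50% of all promoters and 2.30% of those of expressed genes, which says only that these letters are not in those windows. A match is a description and no evidence that a factor binds. Members with the NRF1 motif had ratios in the library labelled Gata12KO against WT whose median lay -0.13 from other genes of their length on the log2 scale, and members without it -0.17. For the ETS motif the same medians were -0.17 and -0.14, and for YY1 -0.17 and -0.14.

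Members were abundant and short. Their median level was 109 FPKM in SclKO, 86.7 in the library labelled Gata12KO and 140 in WT, against 7.77, 7.64 and 7.89 FPKM over all expressed genes. Levels of at least 100 FPKM were reached by 46 members in SclKO, 38 in the library labelled Gata12KO and 50 in WT. The median transcript was 680 nt long, with a range of 292 to 3632 nt, against 2732 nt for all expressed genes, and 38 members were under 600 nt. On the full transcript length the members' medians were 79.3, 67.2 and 103 FPKM. Shorter members had the higher levels, with a Spearman correlation between length and FPKM of -0.60 in SclKO, -0.56 in the library labelled Gata12KO and -0.58 in WT over 89 members. On the full transcript length these were -0.51, -0.46 and -0.48. The rank order of members barely differed between libraries. The Spearman correlation of their levels was 0.980 between SclKO and WT and 0.982 between the library labelled Gata12KO and WT.

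By complex, ATP synthase members had a median of 241 FPKM in SclKO, 153 in the library labelled Gata12KO and 277 in WT. Complex IV had medians of 223, 206 and 274 FPKM, the higher of these complexes in the library labelled Gata12KO. On the full transcript length ATP synthase stood at 158, 108 and 207 FPKM and complex IV at 144, 134 and 200. As deposited, complex III stood at 178, 134 and 236, and complex I subunits at 84.8, 73.3 and 129. On the full transcript length complex III stood at 108, 82.3 and 136 and complex I subunits at 65.8, 50.3 and 83.3. Complex II stood lower, at 37.8, 30.8 and 36.1 FPKM as deposited. The 8 assembly factors of complex I, which help build it and are not part of it, were the lowest group, at 9.07, 7.52 and 11.6 FPKM. On the full transcript length complex II stood at 31.7, 27.8 and 30.5 FPKM and these factors at 8.01, 6.79 and 9.90. The members of highest mean level as deposited were Atp5mpl, Atp5k, Cox4i1, Atp5b and Cox6a1. On the full transcript length Atp5b, the catalytic beta subunit of ATP synthase, came first, with 636 FPKM in SclKO, 476 in the library labelled Gata12KO and 673 in WT. Atp5k, the e subunit of ATP synthase, had 1062 FPKM in SclKO, 505 in the library labelled Gata12KO and 968 in WT as deposited, and 339, 215 and 353 FPKM on its full length of 292 nt. At the other end of the expressed members stood the assembly factors Ndufaf5, with 1.93, 1.54 and 1.91 FPKM, and Ndufaf4, with 3.87, 3.91 and 3.79 FPKM, both level across the libraries within their bounds.

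**Figure D1:**
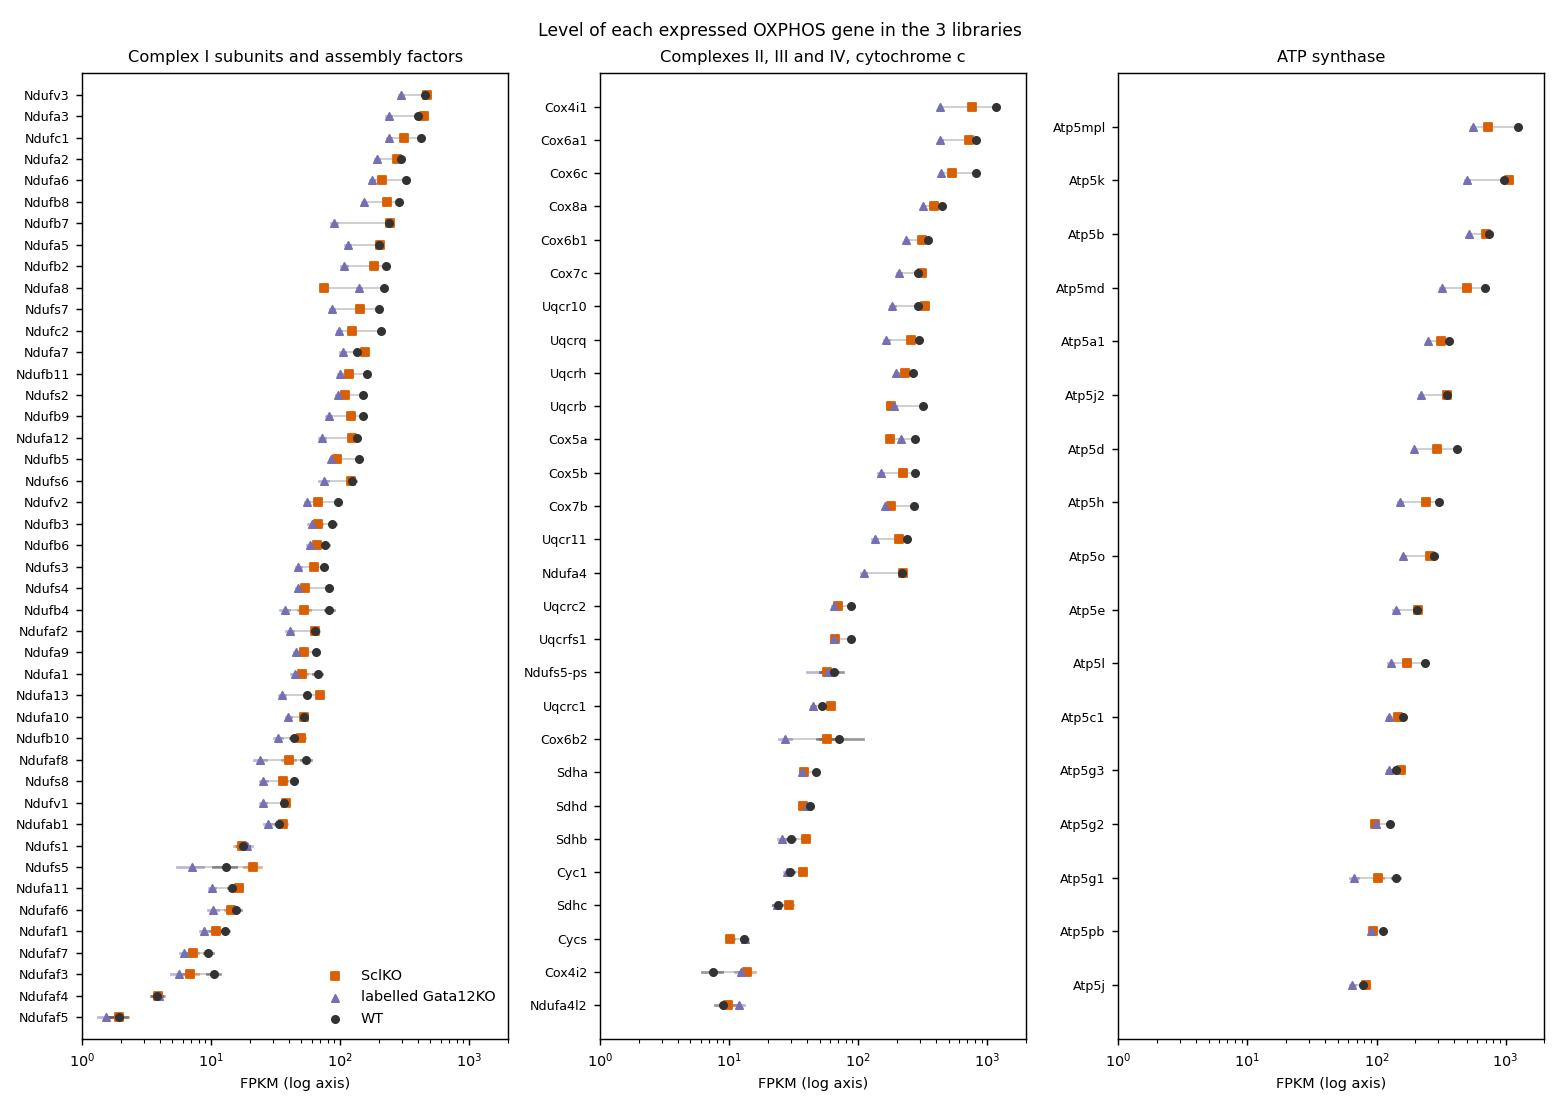
Level of each of the 89 expressed members (FPKM, log axis) in SclKO (squares), the library labelled Gata12KO (triangles) and WT (circles), with the deposited bounds as coloured bars, sorted by mean level within 3 panels of complexes. The triangle is the leftmost point for 78 of the 89 members.

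Depth in the deposited values was 28.3M fragments for SclKO, 50.3M for the library labelled Gata12KO and 31.6M for WT (M for mega), as implied by the bounds, of which 0.224M, 0.314M and 0.306M fell on members. Members rest on enough reads that bounds are narrow, and every difference below describes 3 single libraries with no replicate check. Marker sums of other cells differed between the libraries. The 5 erythroid markers summed to 0.489 FPKM in SclKO, 8.95 in the library labelled Gata12KO and 178 in WT, with 0, 3 and 5 of them at 1 FPKM or more. Hba-a2 and Hbb-y were listed at 0 in SclKO and Hba-x in the library labelled Gata12KO. The 6 leukocyte and megakaryocyte markers summed to 0.988, 22.8 and 43.0 FPKM, the 6 mesenchyme markers to 113, 26.2 and 71.4 and the 6 cardiomyocyte markers to 14.7, 10.4 and 11.9. The 8 endothelial markers summed to 205, 524 and 439 FPKM. The 5 pluripotent markers summed to 6.99, 14.1 and 29.4, an order set by Dppa4, with 2.28, 9.96 and 25.2 FPKM. The other pluripotent markers did not share it. Pou5f1 was highest in the library labelled Gata12KO, and Nanog, Zfp42 and Tdgf1 were highest in SclKO, each with bounds that overlapped those of WT. Nanog and Zfp42 were below 1 FPKM in each library. The part of these cells in the members' values was not tested.

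In SclKO against WT, members were slightly lower as a group, by about as much as other genes of their length or less. The median log2 ratio of (FPKM + 1) was -0.20, against -0.03 over all expressed genes and -0.31 over each member's 200 neighbours, the other expressed genes nearest to it in transcript length. With the neighbours' median taken off, members had a median difference of 0.04, and 52 of 89 lay above their neighbours and 37 below, where 49.6% of all expressed genes lay below theirs. A gene was called higher or lower at a ratio of at least 2-fold with bounds that did not overlap. By that rule 0 of 89 members were higher and 1 was lower, beside 2.12% and 4.24% of expressed genes and 8.51% of the neighbours called lower. At 1.5-fold, 2 members were higher and 11 lower, beside 7.89% and 11.3% of expressed genes. Bounds alone were separate for 13 higher and 51 lower members, beside 26.3% and 31.6% of expressed genes, and bounds this narrow part values that differ little. In sorted cells in bulk, fewer cells of a type and less RNA per cell cannot be told apart.

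The member that stood alone was Ndufa8, an accessory subunit of complex I that is required to build it. Ndufa8 had 74.8 FPKM in SclKO (70.4 to 79.2), 140 in the library labelled Gata12KO (135 to 144) and 217 in WT (210 to 224). It was highest in WT and the 3 ranges did not overlap. The log2 ratio was -1.52 in SclKO against WT, which lay -1.19 from its length neighbours, the farthest below them of any member in this comparison. The lower and upper quartiles of its neighbours' ratios were -0.54 and -0.08. Ndufa8 is given as 1 transcript of 4 exons and 739 nt at chr2:35891854-35904812 on the reverse strand of mm9, with no near-identical copy and no exon shared with another gene. The rest of complex I did not follow it. The other 35 complex I subunits had 0 calls in this comparison, and the median of all 36 was -0.25, or 0.02 after the neighbours were taken off.

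Complex I otherwise held ratios in both directions. Ndufc2, an accessory subunit of the membrane arm, had 123 FPKM in SclKO, 97.8 in the library labelled Gata12KO and 206 in WT, a log2 ratio of -0.75 in SclKO. Ndufs4, a subunit whose loss causes mitochondrial disease, had 53.0, 47.2 and 81.5 FPKM and a ratio of -0.61. Ndufa13 had 69.2, 35.3 and 55.5 FPKM, a ratio of 0.31, but its exons meet those of Tssk6 on the opposite strand over 344 nt, and reads of opposite strands cannot be told apart, since no source used here says whether counting used strand. Core subunits that carry the flavin and the iron-sulfur clusters were mixed in SclKO against WT. Ndufv2 and Ndufs7 had log2 ratios of -0.50 and -0.48. Ndufv1, which binds NADH, had 37.7 FPKM in SclKO, 25.2 in the library labelled Gata12KO and 36.6 in WT. Ndufs1 had 17.4, 19.1 and 17.7 FPKM as a sum of entries. The most abundant of its entries had 10.6 FPKM in SclKO and 15.4 in WT. Among assembly factors the lowest ratios were those of Ndufaf3 (-0.55) and Ndufaf8 (-0.43), and the highest were 0.03 for Ndufaf4 and 0.01 for Ndufaf5.

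Ndufs5, an accessory subunit, showed how the deposited entries can split one gene. It had 21.2 FPKM in SclKO, 7.05 in the library labelled Gata12KO and 12.9 in WT, which gave log2 ratios of 0.67 in SclKO against WT and -1.46 in the library labelled Gata12KO against SclKO. The files place a copy of the pseudogene accession Ndufs5-ps over the same 3 exons at chr4:123389953-123395404 on mm9, and that entry had 0.00277, 14.9 and 9.78 FPKM. The sum of both entries at that locus was 21.2 FPKM in SclKO (18.1 to 24.4), 21.95 in the library labelled Gata12KO (5.41 to 31.3) and 22.7 in WT (10.3 to 31.6). The 3 ranges of the sum overlapped, with log2 ratios of -0.10, -0.05 and 0.05 in SclKO against WT, the library labelled Gata12KO against WT and the library labelled Gata12KO against SclKO. The ratios of Ndufs5 taken alone are therefore not read as a difference in the gene.

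Complex II is the succinate dehydrogenase that is also an enzyme of the citric acid cycle. Its median in SclKO against WT was 0.06 (-0.065 in TPM), or 0.26 after its neighbours were taken off. Sdhb, the iron-sulfur subunit, had 39.1 FPKM in SclKO (36.6 to 41.6), 25.4 in the library labelled Gata12KO (23.9 to 26.9) and 29.97 in WT (27.9 to 32.03). Its SclKO range lay above both others, at a log2 ratio of 0.37, or 0.67 over its neighbours. Sdhc, a membrane anchor, had 29.1, 23.2 and 23.7 FPKM and a ratio of 0.28. Sdha, the flavoprotein, had 38.1, 36.3 and 47.0 FPKM (-0.29), and Sdhd, the other anchor, 37.4, 39.8 and 42.3 (-0.17). The 4 subunits of a complex built in equal numbers thus took different sides, with 0 called.

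In complex III, Cyc1, the cytochrome c1 that hands electrons to cytochrome c, had 36.9 FPKM in SclKO, 27.9 in the library labelled Gata12KO and 29.7 in WT, a log2 ratio of 0.31. The core protein Uqcrc1 had 61.3, 44.4 and 52.7 FPKM and a ratio of 0.22. Both were highest in SclKO. Uqcrb, a small subunit near the quinone site, had 178 FPKM in SclKO, 189 in the library labelled Gata12KO and 317 in WT, the lowest ratio of the complex (-0.83), and has 3 near-identical copies in the genome annotation, so its reads may be split. The Rieske iron-sulfur protein Uqcrfs1 had 65.9, 64.9 and 88.1 FPKM (-0.41). Cycs, cytochrome c itself, had 10.2, 13.3 and 13.0 FPKM, a ratio of -0.32 that lay -0.37 from its neighbours. In ATP synthase the lowest ratios were those of Atp5mpl, the small proteolipid (-0.77), and Atp5d, the delta subunit (-0.51). The highest were 0.13 for both Atp5g3, which encodes the ring-forming c subunit, and Atp5k.

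The library labelled Gata12KO had the lowest level of 78 of the 89 expressed members as deposited. This count was 74 after rescaling by median ratios and 64 after rescaling over transcripts of 300 nt or longer. It was 8 when libraries were rescaled to their sum (TPM), which raised the median of all genes by 0.60 on the log2 scale against WT. Among expressed genes, the 1 of highest level held 412526 of 965021 FPKM in SclKO and 367149 of 885055 in WT. In the library labelled Gata12KO the highest held 164518 of 546491. In SclKO and in WT the highest gene had a transcript under 300 nt, since its level exceeded the sum over all longer ones. Transcripts under 300 nt held most of the sum in each library, so the TPM scaling is set mainly by them. Against WT the members' median log2 ratio was -0.64, against -0.08 over all expressed genes. With the same rescalings it was -0.53, -0.34 and 0.044. As deposited, members called lower numbered 12 and higher 0, beside 3.75% and 0.767% of expressed genes. Other genes of like length were lower as well. The neighbours had a median of -0.61 as deposited, and 16.6% of them were called lower, against 13.5% of members. After the neighbours were taken off, the median difference was -0.14, with 59 members below their neighbours and 30 above, where 50% of all expressed genes lay below theirs, and 0 of the 12 calls remained. At 1.5-fold, 48 members were lower and 1 higher, beside 14% and 4.77% of expressed genes and 39.8% of the neighbours lower. Bounds alone were separate for 79 lower and 2 higher members, beside 37.6% and 24.2% of expressed genes.

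**Figure D2:**
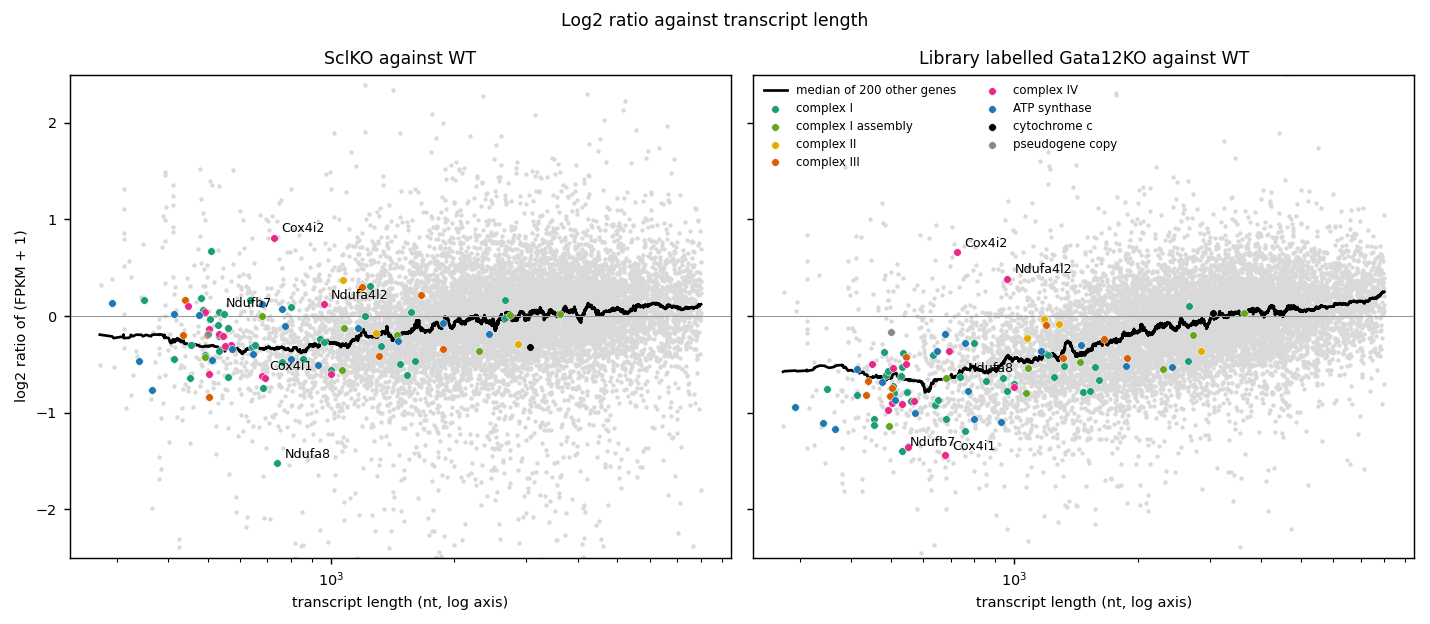
Log2 ratio of (FPKM + 1) against transcript length (nt, log axis) in SclKO against WT (left) and the library labelled Gata12KO against WT (right). Members are coloured by complex, other expressed genes are grey (those beyond 2.5 on either side are not drawn), and the line is the running median of other genes over up to 200 of them. Other genes with the shortest and longest transcripts are not drawn. In the right panel the line lies below 0 for short transcripts and rises with length, and 59 of the 89 members lie below their neighbours.

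Length and ratio were related among members in the library labelled Gata12KO against WT (Spearman correlation 0.50 over 89 members, which are not independent replicates) and hardly in SclKO against WT (0.02). The 38 members under 600 nt had a median of -0.80 in the library labelled Gata12KO against WT, with neighbours at -0.65. The 29 members of at least 1000 nt had -0.43, with neighbours at -0.35. By these medians, members lay below other genes of their length both among short and among long transcripts. In the range of 1200 to 1999 nt, 14 members had a median of -0.49 and 2162 other genes -0.29, and in that of 600 to 799 nt, 15 members had -0.64 and 280 other genes -0.63.

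The 12 members called lower were Ndufb2, Ndufb4, Ndufb7, Ndufc2 and Ndufs7 of complex I, its assembly factor Ndufaf8, Cox4i1 and Cox6b2 of complex IV, and Atp5d, Atp5g1, Atp5md and Atp5mpl of ATP synthase. All 12 also lay below their length neighbours, by log2 differences between -0.41 and -0.78. The strongest was Cox4i1, the main isoform of the regulatory subunit 4 of complex IV. Cox4i1 had 763 FPKM in SclKO (748 to 778), 432 in the library labelled Gata12KO (424 to 440) and 1172 in WT (1154 to 1189). The 3 ranges were far apart, with WT highest. The log2 ratio was -1.44 in the library labelled Gata12KO against WT, or -0.78 from its neighbours, and -0.62 in SclKO against WT, or -0.28 from them. Cox4i1 is given as 1 transcript of 5 exons and 679 nt at chr8:123192190-123198109 on the forward strand of mm9.

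Ndufb7, an accessory subunit of complex I that faces the intermembrane space, differed in the library labelled Gata12KO and not in SclKO. It had 243 FPKM in SclKO (233 to 253), 89.2 in the library labelled Gata12KO (84.8 to 93.6) and 237 in WT (227 to 246). The SclKO and WT ranges overlapped, and the third lay far below both. The log2 ratio was -1.40 against WT and -1.44 against SclKO, or -0.73 and -1.12 from its neighbours. Ndufb7 has 3 exons in 533 nt at chr8:86090657-86095522 on the forward strand of mm9. Ndufs7, a core subunit that holds the last iron-sulfur cluster before ubiquinone, had 143 FPKM in SclKO, 86.7 in the library labelled Gata12KO and 199 in WT, a ratio of -1.19 against WT. The assembly factor Ndufaf8 had 40.0, 24.0 and 54.1 FPKM and a ratio of -1.14.

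The 36 complex I subunits had a median of -0.69 in the library labelled Gata12KO against WT (-0.17 after the neighbours, and -0.0014 in TPM), and 27 of 36 lay below their neighbours. The highest ratios in it were those of Ndufs1 (0.10), whose exons meet an antisense gene, and of Ndufab1, an acyl carrier protein, with 35.9 FPKM in SclKO, 27.6 in the library labelled Gata12KO and 33.7 in WT (-0.28). ATP synthase had a median of -0.68 (-0.22 after the neighbours, and 0.011 in TPM), with 11 of 17 below their neighbours. The 3 genes that encode the same mature c subunit parted. Atp5g1 had 103 FPKM in SclKO, 66.8 in the library labelled Gata12KO and 141 in WT (-1.07), Atp5g2 had 96.6, 98.7 and 127 (-0.36), and Atp5g3 155, 125 and 142 (-0.19). Atp5g3 lay 0.47 above its neighbours and Atp5g1 -0.54 from them. Atp5g2 has 2 near-identical copies in the annotation.

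The assembly factors of complex I had a median of -0.54 in the library labelled Gata12KO against WT, or -0.11 after the neighbours and 0.090 in TPM. Complex III had a median of -0.43 (-0.06 after the neighbours, and 0.25 in TPM) and 0 of 9 called. Its lowest ratios were -0.83 for Uqcrq and -0.82 for Uqcr11, both small subunits, and its highest were -0.09 for Cyc1 and -0.24 for Uqcrc1. Complex II had a median of -0.16 as deposited, 0.15 when libraries were rescaled over transcripts of 300 nt or longer and 0.52 in TPM, and a difference of 0.30 from its neighbours, and 3 of its 4 members lay above theirs. The highest ratio in it was -0.03 for Sdhc and the lowest -0.36 for Sdha. Cycs had a ratio of 0.03, level with its neighbours.

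**Figure D3:**
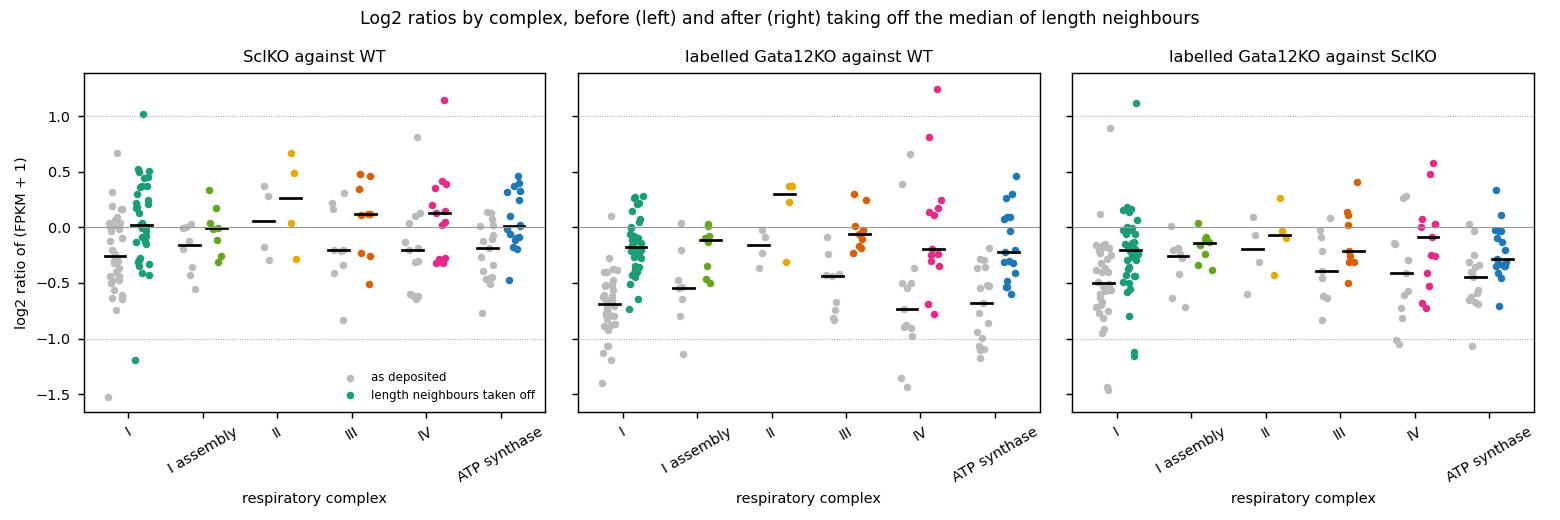
Log2 ratio of (FPKM + 1) of each expressed member by complex in the 3 comparisons, as deposited (grey, left of each pair) and after the median of its 200 length neighbours was taken off (coloured, right), with medians as black bars and 2-fold as dotted lines. For the library labelled Gata12KO against WT the bars move from between -0.74 and -0.16 to between -0.22 and 0.30.

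Complex IV had a median of -0.74 in the library labelled Gata12KO against WT, or -0.20 after the neighbours and -0.047 in TPM, and held isoforms that went separate ways. Cox4i2, the isoform of subunit 4 known from lung and from low oxygen, had 13.8 FPKM in SclKO (11.9 to 15.7), 12.3 in the library labelled Gata12KO (10.998 to 13.6) and 7.42 in WT (6.11 to 8.74). Its WT range lay below both others, and theirs overlapped. The log2 ratio was 0.81 in SclKO and 0.66 in the library labelled Gata12KO, each against the same WT library, or 1.14 and 1.25 above its neighbours. It was the member farthest above its neighbours in both. Cox4i2 made up 1.78% of the summed FPKM of Cox4i1 and Cox4i2 in SclKO (bounds 1.50% to 2.06%), 2.77% in the library labelled Gata12KO (2.44% to 3.12%) and 0.629% in WT (0.511% to 0.751%). Both transcripts are short and alike in length (727 and 679 nt), and Cox4i1 remained the major isoform in each library.

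Ndufa4, now counted as a subunit of complex IV in spite of its name, and its paralogue Ndufa4l2, a known target of hypoxia-inducible factor, were a second such pair. Ndufa4 had 223 FPKM in SclKO (212 to 233), 110 in the library labelled Gata12KO (104 to 115) and 217 in WT (207 to 226). Ndufa4l2 had 9.77 (8.43 to 11.1), 11.9 (10.8 to 13.0) and 8.88 (7.68 to 10.1). Ndufa4 was lower in the library labelled Gata12KO alone, at -0.98 against WT and -1.02 against SclKO, while Ndufa4l2 had a ratio of 0.39 against WT and lay 0.81 above its neighbours. As deposited, Ndufa4l2 made up 4.20% of the pair in SclKO, 9.81% in the library labelled Gata12KO and 3.94% in WT. Ndufa4 is the shorter transcript (492 nt, against 962 nt), so these shares run low for Ndufa4l2. On the full transcript length Ndufa4 had 133, 72.3 and 135 FPKM and Ndufa4l2 7.75, 9.85 and 7.17. The exons of Ndufa4l2 meet those of Shmt2 on the opposite strand over 32 nt.

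**Figure D4:**
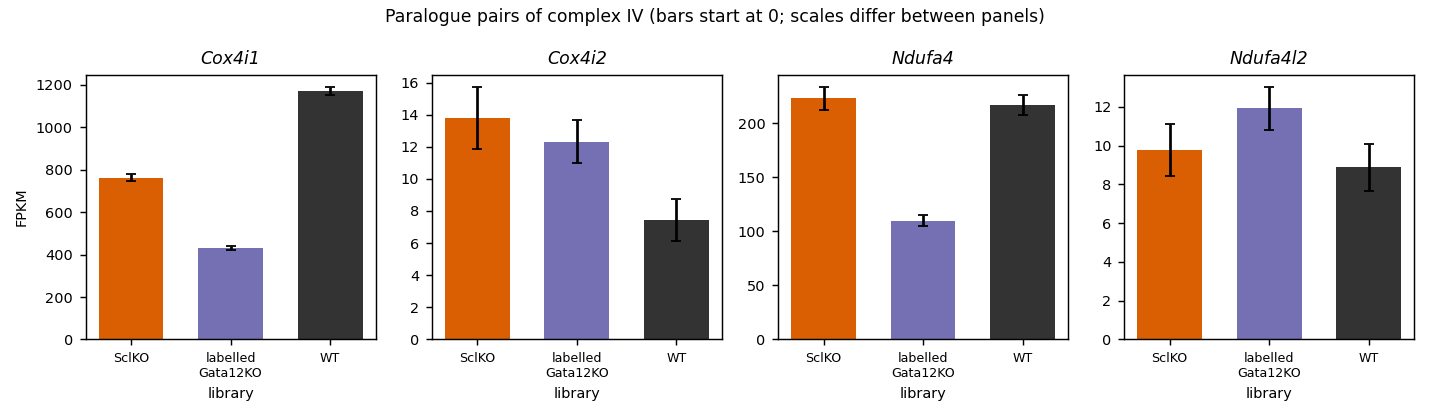
FPKM of the isoform pairs Cox4i1 and Cox4i2, and Ndufa4 and Ndufa4l2, in SclKO, the library labelled Gata12KO and WT (left to right), with the deposited bounds as error bars and a separate axis for each gene. Cox4i1 was highest in WT at 1172 FPKM, while Cox4i2 was lowest there at 7.42 FPKM.

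Of the other isoforms, Cox6b2, known from testis, had 56.8 FPKM in SclKO (50.2 to 63.4), 27.0 in the library labelled Gata12KO (24.2 to 29.9) and 70.8 in WT (47.7 to 109), as the sum of 2 entries that overlap, with the widest bounds in WT. It made up 15.4%, 10.3% and 17.1% of the sum with Cox6b1, and its log2 ratio against WT was -1.36 in the library labelled Gata12KO. Cox8b, a heart and muscle isoform, was listed at 0 in every library, as was the testis isoform Cox8c. A listed 0 is not read as lack of expression, since in these files most ribosomal protein genes are listed at 0 too. Cox6a2, another heart and muscle isoform, had 0.0768 FPKM in SclKO and was listed at 0 in both others, and Cox7b2 had 0.0885 FPKM in WT alone, where their counterparts Cox6a1 and Cox7b had 812 and 270 FPKM. The common subunit Cox5a had 175 FPKM in SclKO, 212 in the library labelled Gata12KO and 274 in WT. Its ratio in SclKO (-0.64) was the lowest of complex IV, close to those of Cox4i1 (-0.62), Cox6c (-0.60) and Cox7b (-0.60).

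The library labelled Gata12KO was also lower than SclKO as deposited, with a median log2 ratio of -0.40, against -0.06 over all expressed genes and -0.30 over the length neighbours. The members' median was -0.34 by median ratios, -0.24 over transcripts of 300 nt or longer and 0.40 in TPM, which raised the median of all genes by 0.72. Members called lower numbered 5 and higher 0, beside 3.75% and 3.38% of expressed genes and 7.99% of the neighbours lower. At 1.5-fold, 30 were lower and 1 was higher, beside 11.3% and 7.86% of expressed genes. Bounds alone were separate for 69 lower and 3 higher members, beside 33.5% and 24.8%. After the neighbours the median difference was -0.18, with 66 of 89 below, where 50.4% of all expressed genes lay below theirs. The libraries are those of the comparisons above, so these values add no separate evidence.

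The 5 members called lower were Atp5k (-1.07), Cox6b2 (-1.04), Ndufa4 (-1.02), Ndufb7 and Ndufs5, the last of which is the split entry described above. After the neighbours were taken off, Ndufb7 (-1.12) and Ndufs5 (-1.15) still passed the 2-fold rule among them. Atp5k has 1 near-identical copy in the annotation, so its reads may be split. Ndufa8 was higher in the library labelled Gata12KO, at 0.89 or 1.11 above its neighbours. Cox5a (0.28) and Cycs (0.35) were the others with separate bounds on the higher side. By complex, 15 of 17 ATP synthase members lay below their neighbours, with a median difference of -0.28, and 29 of 36 complex I subunits did, at -0.20. In complex III the lowest ratios were -0.84 for Uqcr10 and -0.63 for Uqcrq, and the highest 0.09 for Uqcrb and -0.02 for Uqcrfs1.

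Other genes of mitochondrial energy metabolism were set beside the members from lists. In the library labelled Gata12KO against WT, the 42 assembly factors outside the name rule had a median of -0.33 (-0.11 after the neighbours), with 2 called lower (4.76%), against 3.75% of expressed genes and 9.04% of their neighbours. These were Coa3, a complex IV assembly factor, with 121 FPKM in SclKO, 61.8 in the library labelled Gata12KO and 142 in WT, and Cmc2, with 25.5, 11.9 and 32.6 FPKM. In SclKO against WT the same list had a median of -0.14 and 0 calls. The 18 genes of the citric acid cycle and pyruvate dehydrogenase had 0 calls and medians of -0.14 in the library labelled Gata12KO and -0.15 in SclKO, both against WT. Their median transcript was 2261 nt long, and after the neighbours the medians were -0.04 and -0.06. Idh3g had 81.5 FPKM in SclKO, 62.9 in the library labelled Gata12KO and 109 in WT, and Pdhb 31.4, 58.4 and 45.3.

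The 23 expressed mitochondrial import genes had medians of -0.44 in the library labelled Gata12KO and -0.10 in SclKO against WT, or -0.02 and 0.03 after the neighbours. Timm10, a carrier chaperone of the intermembrane space, was lower in both, with 43.1 FPKM in SclKO, 46.1 in the library labelled Gata12KO and 96.5 in WT. The 14 proteasome core subunits, short transcripts with no part in respiration and a median length of 983 nt, had 0 calls. Their medians were -0.54 in the library labelled Gata12KO and -0.33 in SclKO against WT, beside -0.64 and -0.20 for members. After the neighbours they were -0.09 and -0.02, beside -0.14 and 0.04 for members. A further list held 13 expressed genes, with a median transcript of 3584 nt. It joined regulators of the members, such as Nrf1 and Yy1, with genes that act on mitochondrial DNA, such as Polg and Tfam. These 13 genes had 0 calls and medians of 0.07 and 0.12, or 0.21 and 0.10 after the neighbours. Among them Gabpa, a subunit of GABP, had 10.4 FPKM in SclKO, 13.5 in the library labelled Gata12KO and 8.61 in WT. The coactivators Ppargc1a and Ppargc1b were below 1 FPKM in each library.

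Glycolytic enzymes, the other route to ATP, had medians of 0.06 in the library labelled Gata12KO and 0.05 in SclKO against WT over 17 genes. Their median transcript was longer, at 1832 nt, and their length neighbours had medians of -0.23 and -0.08. After the neighbours the medians were 0.30, with 12 of 17 above, and 0.15, with 9 of 17 above. Hk2, the inducible hexokinase, was higher in both, with 10.98 FPKM in SclKO, 16.7 in the library labelled Gata12KO and 4.29 in WT. Eno1, an enolase, was higher in both as well, with 174, 131 and 25.5 FPKM, and copies of it were not sought here. Pgk1 was lower in SclKO, with 405 FPKM there, 944 in the library labelled Gata12KO and 906 in WT. Both of these comparisons use the same WT library.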

How the data were processed

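RNA-seq values of 3 libraries were used, 1 per group. The libraries were built from total RNA with the Encore Complete system of Nugen and sequenced in reads of 50 nt, per the labels' protocols. Per the file headers and source column, the deposited values are FPKM with lower and upper bounds from Cufflinks, on chromosome names that fit mm9. The submitters' processing notes list, with no role or order, TopHat2 2.0.4, Cufflinks 2.0.1 and Cuffdiff, and as builds hg19 and mm9. Each deposited file holds 30123 entries with RefSeq accessions as text beside these FPKM values. Of 29646 accessions, 29063 were named from the RefSeq table (GRCm38.p6, so some symbols are older ones), 173 from GENCODE and 410 from neither. In 136 entries an accession differed in 1 file, and 134 whose symbols then differed were left out.

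FPKM and bounds were summed per symbol with Python 3.11.15, pandas 2.3.3 and numpy 2.4.6. The bounds lie 2 Poisson standard deviations from each value, which gave the depths. Summed bounds are wider than those of a single entry. Ratios are log2((FPKM + 1)/(FPKM + 1)), which understates ratios of low values. With 1 library per group no test applies and no p-value is given, and bounds cover counting error only. Neighbours are the 200 other expressed genes nearest in transcript length. Near-identical copies were sought with blastn 2.17.0 at 95% identity over at least 50% of a transcript in GENCODE M21, and 13 of 92 members had at least 1. Exons of 12 members meet those of another gene. The calculations were tested on simulated data. Members named are those past the 2-fold rule, the highest and lowest ratios of each complex, the extremes of level and the isoform pairs. Ndufa13, Ndufs4, Ndufv1, Ndufv2 and Ndufs1 were added after their values were seen. Members and lists were chosen with earlier results of these data known. Alternatives were another pseudocount, level filter, scaling, length measure, neighbour set and fold. Levels on the full transcript length were added after seeing the data. A further erythroid marker is not reported here.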

Additional observations from a re-analysis of the deposited data

How the results depend on the processing

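No paired analysis was possible because each group had 1 library. Values below are for SclKO against WT, the library labelled Gata12KO against WT, and the library labelled Gata12KO against SclKO, in that order, as deposited with medians of -0.20, -0.64 and -0.40. The median turned or shrank once 200 length neighbours were taken off (0.037, -0.14, -0.18), as it did with 50 neighbours (0.063, -0.12, -0.16), with 100 neighbours of at least 20 FPKM (0.016, -0.12, -0.12), with neighbours after a full-length correction (0.015, -0.13, -0.14) and with protein-coding neighbours (0.033, -0.14, -0.17), the last pair of settings chosen after seeing the data. Members lower then numbered 1, 0 and 2 and higher 2, 1 and 1 (1, 1 and 1 in the other neighbour settings). At 1.5-fold, 11, 48 and 30 members were lower and 2, 1 and 1 higher.

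Rescaling to the library sum (TPM) moved the median of all genes by -0.11, 0.60 and 0.72 and that of members in the library labelled Gata12KO to 0.044 and 0.40, with 0 lower in both and 2 and 4 higher. Relative to all genes, members then lay at -0.18, -0.47 and -0.26, against -0.17, -0.55 and -0.35 as deposited. Rescaling to transcripts of 300 nt or longer shifted all genes by 0.13, 0.28 and 0.15 and gave members medians of -0.057, -0.34 and -0.24, with 3 and 2 lower in the library labelled Gata12KO and 1 higher in each comparison. Without members under 600 nt, 5 were lower against WT and 0 against SclKO. Against SclKO, 3 were lower with a pseudocount of 5 FPKM or median-ratio scaling and 2 with full transcript length, and the longest entry alone gave 1 higher in SclKO against WT. The causes were not tested beyond what each setting changes. With single libraries, replicate spread is unknown, and no member past the 2-fold rule changed the sign of its ratio under the settings run. In SclKO against WT the higher members after the neighbours were Cox4i2 and the split entry Ndufs5.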

Other observations

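Ribosomal protein genes were meant as a further set of short and abundant transcripts and could not serve. Of 77 genes with symbols that start with Rpl or Rps, 73 were listed at 0 in every library, and of 78 that start with Mrpl or Mrps, 72 were. Rps23 had 809 FPKM in SclKO, 738 in the library labelled Gata12KO and 1172 in WT, and Rpl32 had 216, 189 and 301 FPKM. Rpl35 and Mrpl58 were the others of at least 1 FPKM. Cells need these genes, so a 0 there is no measure of expression, while 2 of the 93 members (Cox8b and Cox8c) and 0 of the proteasome and citric acid cycle genes were at 0 in every library. The cause was not tested.

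Cox7a1, the heart and muscle isoform of a complex IV subunit outside the name rule, had 6.07 FPKM in SclKO, 18.7 in the library labelled Gata12KO and 27.1 in WT, while its counterpart Cox7a2 had 229, 211 and 303 FPKM. Pet117, a complex IV assembly factor, had 7.65, 2.29 and 4.83 FPKM.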
